A study of Homo sapiens with 8 samples.

Results

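Nascent RNA was compared between 2 colorectal cancer cell lines, DLD-1 and HCT116, using the 4 control libraries of a series of 8. The members were taken by their labels alone: 2 libraries of DLD-1 cells in which mClover and a mini auxin-inducible degron (mAID) were fused to POLR2A, the largest subunit of RNA polymerase II, and in which the auxin receptor OsTIR1 is under a tetracycline-inducible promoter, and 2 libraries of HCT116 cells in which mAID was fused to TOP2A. Both control groups were asynchronous and labelled untreated. The sources used here do not give whether control cells also received doxycycline or were sorted for G1, how many clones stand behind each line, or whether replicates came from separate cultures, so p-values measure the spread between these libraries, which may be technical. The other 4 libraries were the same DLD-1 cells after 24 h of doxycycline and 14 h of 500 µM auxin, and HCT116 cells that carry the TOP2A tag on a TOP2B-/- genotype. The TOP2B-/- libraries are also recorded with 500 µM auxin for 14 h and 24 h of doxycycline, while another of their labels calls them control. Cell line, tagged gene, count table and the naming of the read files change together between the 2 control groups. Each difference reported here is therefore a difference between these 2 sets of libraries, and line and batch cannot be told apart.

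Both lines are epithelial and come from colorectal tumours with defective DNA mismatch repair. DLD-1 is known for a truncated APC, the scaffold that marks β-catenin for destruction. HCT116 is known for intact APC with a stabilising mutation in CTNNB1 (β-catenin itself), so both have an active Wnt pathway by different routes. HCT116 is also described as poorly differentiated, and DLD-1 as more epithelial. In factory-seq, nuclei are digested so that most chromatin is cut away and released transcription complexes carry their nascent transcripts into the supernatant. Reads therefore fall over whole gene spans, introns included, and report transcription and not the mRNA pool.

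The tables held 18638 protein-coding gene models in both lines, with 36906755 to 62626875 counted reads in the DLD-1 libraries and 33239768 to 36491540 in the HCT116 libraries. Pearson's r of log2 CPM (the read count scaled to a common library size with TMM, the trimmed mean of M-values) over the 15820 genes tested was 0.97 between DLD-1 replicates, 0.98 between HCT116 replicates and 0.76 to 0.87 between lines. The libraries also differed in background, measured as the read density over the 20% of gene models of at least 5000 bases with the fewest reads in the other line: spread over all models it made up 2.24% and 9.02% of the reads in DLD-1 controls 1 and 2, and 1.79% and 0.27% in HCT116 controls 1 and 2. At levels below about 1 CPM a fold change rests on that background, and its part in such differences was not tested beyond the background-subtracted fits. Neither tagged gene passed the test between lines. TOP2A was at 717 and 551 CPM in DLD-1 and at 661 and 672 CPM in HCT116, and POLR2A at 226 and 143 against 138 and 139 CPM (edgeR adjusted p = 0.75 and 0.23). TOP2B, at 251 and 238 against 191 and 183 CPM, was higher in DLD-1 (0.38 ± 0.07, SE, adjusted p = 0.02), in a model that overlaps RARB, and stood at 134 and 134 CPM in the TOP2B-/- libraries. Here and below, CPM of the TOP2B-/- libraries is scaled by the library total alone, without TMM, unlike that of the controls.

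Across all genes, 7286 of 15820 passed edgeR's quasi-likelihood test at an adjusted p of 0.05, which is 46.1% of those tested. Of these, 2775 (17.5%) were higher in DLD-1 and 4511 (28.5%) were higher in HCT116, and 4027 differed by a log2 fold change of 1 or more. The log2 fold change is DLD-1 minus HCT116 throughout, and its median over all tested genes was 0.00. The libraries of the 2 lines did not overlap in 13270 of the tested genes, among them all that were called. The split between directions depends on the scaling and the filter: the same test with DESeq2 size factors called 3115 genes higher and 3568 lower in DLD-1 (median over all genes 0.11), and upper quartile scaling 3300 and 3913 (0.13). DESeq2's own test called 4010 higher and 4275 lower, and restricting the edgeR fit to genes whose mean CPM reached 5 gave 3334 higher and 3742 lower.

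**Figure D1:**
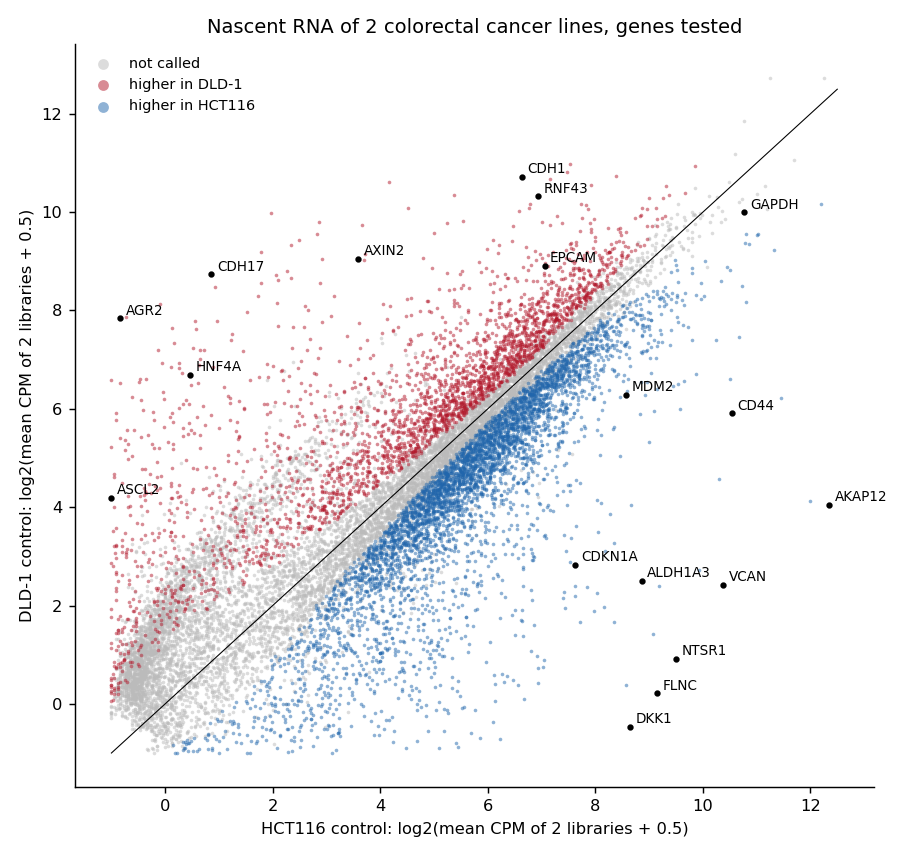
Mean nascent RNA level of each tested gene in control HCT116 (x axis) and control DLD-1 (y axis), both as log2(mean CPM of 2 libraries + 0.5), with genes called higher in DLD-1 in red, higher in HCT116 in blue and not called in grey; chromosome Y genes are not drawn. Genes such as AGR2 and CDH17 sit near the bottom of the HCT116 range and high in DLD-1, while DKK1 sits near the bottom of the DLD-1 range and high in HCT116, and AKAP12 and VCAN are high in HCT116 at a low to middle level in DLD-1.

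Per kilobase of counted gene, GAPDH was the gene shared by the first 5 of each line. In DLD-1 the highest levels were those of the linker histone gene HIST1H1C at 313 ± 9.47 CPM per kb (SD, n = 2), the keratin gene KRT18 at 272 ± 62.5, HIST1H1E at 262 ± 2.66, the glycolytic enzyme GAPDH at 257 ± 76.7 and β-actin (ACTB) at 224 ± 37.6. In HCT116, γ-actin (ACTG1) led with 589 ± 73.9 CPM per kb, followed by the elongation factor EEF1A1 at 444 ± 33.7, GAPDH at 440.3 ± 43.8 and the chaperone HSPA8 at 316 ± 15.7. Of these, ACTG1 (log2 fold change -2.24 ± 0.24, SE, adjusted p = 0.0066), HSPA8 (-1.68 ± 0.22, adjusted p = 0.0092) and HIST1H1C (0.57 ± 0.12, adjusted p = 0.029) passed the test, and the other genes named here did not. HNRNPUL2 also ranked among the first 5 in HCT116, but its counted length is a single base and its level below 1 CPM. Among genes with a counted length of at least 1000 bases, a limit not used for the ranking above, the 1000 highest per kilobase were taken in each line, and 629 were shared, 62.9% of either list.

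The largest differences towards DLD-1 were in genes that had almost no reads in HCT116. AGR2, a protein disulfide isomerase of mucus-secreting epithelium, was at 244 and 213 CPM in DLD-1 and at 0.123 and 0 CPM in HCT116 (log2 fold change 11.89 ± 0.49, adjusted p = 0.0023). The gel-forming mucin gene MUC5AC had 3765 and 1752 reads against 1 read in each HCT116 library, a ratio of 1951 with an exact 95% counting interval of 539.9 to 16115. The glutathione transferase GSTM3 was at 70.9 and 48.9 CPM against 2 reads in all in HCT116, and the selenium-binding protein SELENBP1 at 111 and 73.4 against 0.123 and 0 CPM. TM4SF1, a tetraspanin-like surface protein, was at 41.3 and 42.8 against 0.092 and 0.0269 CPM, and both the chemokine CXCL5 and the flippase subunit TMEM30B had over 900 reads in each DLD-1 library and 1 read in all in HCT116. ASCL2, the transcription factor of intestinal stem cells, had 957 and 749 reads in DLD-1 and none in HCT116, at least 402-fold higher against a floor of 3 reads over the 2 HCT116 libraries. The remaining 2 of the 10 were the linker histones HIST1H1B and HIST1H1D, described with the histone cluster. The rule that chose these genes required both DLD-1 libraries to lie above both HCT116 libraries, and their calls held with any 1 library left out.

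In the opposite direction, the lead was taken by DKK1, a secreted Wnt antagonist, at 367 and 433 CPM in HCT116 and 0.0331 and 0.418 CPM in DLD-1 (log2 fold change -11.04 ± 0.67, adjusted p = 0.0029). The X-linked cancer-testis genes MAGEB2 and MAGEA3 were at 41.4 and 45 CPM and at 29.9 and 37.1 CPM in HCT116, while MAGEA3 had 0 and 3 reads in DLD-1, a ratio of 1109 with an exact counting interval of 379 to 5383. FLNC, an actin cross-linker best known from muscle, was at 536 and 599.7 CPM against 0.481 and 0.835, and AKAP12, a scaffold for protein kinase A, at 5225 and 5235 CPM against 13.6 and 18.4, a fitted 327-fold difference. NTSR1, the neurotensin receptor, was at 737 and 716 CPM against 0.63 and 2.14. CYP24A1, which inactivates vitamin D, was at 369 and 388 CPM against 0.447 and 1.15. The list was completed by GOLGA8B (72.2 and 75.7 CPM), the acyltransferase GPAT2 (52.9 and 62.3) and SLC22A31 (36.2 and 47.7), all below 0.2 CPM in DLD-1. GOLGA8B and the MAGE genes belong to families of near-identical copies, so how reads were divided among copies is uncertain. The HCT116 TOP2B-/- libraries showed the same genes at 222 and 216 CPM for DKK1, 153 and 156 for CYP24A1, 491 and 423 for FLNC and 5327 and 5568 for AKAP12.

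Promoter windows of genes from each end are shown to make these loci concrete, 250 bases before to 50 after the RefSeq start in the build GRCh38.p14, 5′ to 3′ on the gene's strand, with each CG dinucleotide in capitals. AGR2 (chr7:16804950-16805249, minus strand) and HNF4A (chr20:44355449-44355748, plus strand) were at background in HCT116, and DKK1 (chr10:52314031-52314330, plus strand) and NTSR1 (chr20:62708586-62708885, plus strand) at background in DLD-1.
AGR2: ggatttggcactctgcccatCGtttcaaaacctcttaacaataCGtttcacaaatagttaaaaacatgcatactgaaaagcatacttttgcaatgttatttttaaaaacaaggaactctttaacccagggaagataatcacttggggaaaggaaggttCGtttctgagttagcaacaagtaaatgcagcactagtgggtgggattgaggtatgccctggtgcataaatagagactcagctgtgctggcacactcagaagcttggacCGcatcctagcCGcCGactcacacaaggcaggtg
HNF4A: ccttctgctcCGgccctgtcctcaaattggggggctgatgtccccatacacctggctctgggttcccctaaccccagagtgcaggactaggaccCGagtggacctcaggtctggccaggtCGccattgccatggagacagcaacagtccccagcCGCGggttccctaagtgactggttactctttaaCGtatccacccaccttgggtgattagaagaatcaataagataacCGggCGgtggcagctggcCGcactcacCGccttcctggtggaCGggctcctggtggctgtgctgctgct
DKK1: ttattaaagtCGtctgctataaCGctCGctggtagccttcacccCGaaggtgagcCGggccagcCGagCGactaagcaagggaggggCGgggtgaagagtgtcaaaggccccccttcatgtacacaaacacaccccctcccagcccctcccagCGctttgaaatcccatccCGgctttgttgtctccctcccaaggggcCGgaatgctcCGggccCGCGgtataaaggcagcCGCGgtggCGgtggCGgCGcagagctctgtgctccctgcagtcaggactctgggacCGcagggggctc
NTSR1: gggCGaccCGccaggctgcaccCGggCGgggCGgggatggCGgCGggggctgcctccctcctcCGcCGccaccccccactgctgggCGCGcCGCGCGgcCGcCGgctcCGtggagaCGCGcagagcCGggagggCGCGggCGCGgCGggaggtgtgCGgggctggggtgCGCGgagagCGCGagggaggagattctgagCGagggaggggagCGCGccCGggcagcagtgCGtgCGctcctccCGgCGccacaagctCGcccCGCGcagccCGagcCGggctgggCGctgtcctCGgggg
The windows hold 6 and 11 CG dinucleotides in AGR2 and HNF4A and 20 and 45 in DKK1 and NTSR1, against a median of 23 over the 13982 windows matched to a gene model. These 4 genes were picked for display after their values were seen and do not stand for their groups: KIT and TGFBI, higher in DLD-1, hold 38 and 27, and VCAN, AKAP12 and PRAME, higher in HCT116, hold 15, 15 and 13. Promoter CpG content was not compared between gene sets because only 73.4% of the DLD-1 set and 64.8% of the HCT116 set had a window, under the 80% required.

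A stricter reading sets each gene against the background of its own library. By a rule of at least 10 times background in both libraries of one line and at most 2 times in both of the other, 64 of 18611 models (0.344%) were transcribed in DLD-1 only and 443 (2.38%) in HCT116 only, while 7463 were above 10 times background in all 4 libraries. Those counts depend on the libraries used: without DLD-1 control 1 or HCT116 control 1, 890 or 1081 models counted as HCT116 only, and without DLD-1 control 2 or HCT116 control 2, 154 or 100 counted as DLD-1 only. With a single limit for all 4 libraries, set by the library with the most background, the counts were 173 and 215. Of these, 59 and 117 were also in the sets of 64 and 443, so membership depends on the limit as well. AGR2 was at 964 and 225 times background in DLD-1 and 0.62 and 0 times in HCT116, and DKK1 at 6810 and 56147 times in HCT116 and 0.48 and 1.63 times in DLD-1. By level, the DLD-1 set was led by CADPS, a priming factor of dense-core vesicles (1072 and 946 CPM against 6.62 and 0.161), the semaphorin SEMA5A (804 and 695 against 12.9 and 0.215) and the actin-binding adaptor SORBS2 (616 and 556 against 5.36 and 0.538). It also held CFTR, the chloride channel of intestinal and airway epithelium, at 232 and 210.1 against 2.79 and 0.135 CPM. The HCT116 set was led by the matrix proteoglycan versican (VCAN, 1347 and 1306 CPM against 2.55 and 7.18), SLC35F3 (1410 and 1117 against 11.2 and 35.5) and the collagen COL12A1 (967 and 971 against 2.54 and 9.58). Moesin (MSN), which links actin to the membrane, at 206 and 216 against 1.39 and 3.94 CPM, and the fatty acid elongase ELOVL5, at 265 and 258 against 1.49 and 7.02 CPM, were in the same set. SEMA5A, CADPS and the other long genes of the DLD-1 set read higher in HCT116 control 1 than in control 2, as the background of those libraries did. In the HCT116 set, VCAN, SLC35F3, COL12A1, MSN and ELOVL5 read higher in DLD-1 control 2 than in control 1, again as the background did. The part of background in these values was not tested.

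Markers of colon epithelium were checked first among the gene lists. KRT8, KRT18 and KRT19, the keratins of simple epithelium, were high in both lines, at 318 to 2477 CPM in every library, although KRT8 and KRT18 models overlap. EPCAM was at 497 and 461 CPM in DLD-1 and 129 and 136 CPM in HCT116, and the E-cadherin gene CDH1 at 1945 and 1419 against 98.9 and 98.1 CPM. The intestinal cadherin CDH17 (483 and 370.0 against 2.36 and 0.269 CPM) and the microvillus protein VIL1 (11.7 and 9.45 against 0.644 and 0.215) were near background in HCT116, and CDX1 and LGALS4 were below 1 CPM in all 4 libraries. HCT116 thus carried keratins, EPCAM and a low level of CDX2, with CDH17, VIL1, LGALS4 and CDX1 at or below 2.36 CPM. Of 25 markers of other cell types 21 were tested, of which 2 were higher in DLD-1 (ALB and PDGFRB) and 2 in HCT116 (COL1A1 and CD68). Over all tested genes the shares were 17.5% and 28.5%. Their summed level ran from 45.6 to 133 CPM in DLD-1 and from 166 to 207 CPM in HCT116, and COL1A1 at 43.6 and 44.5 CPM against 0.398 and 0.835 was the member furthest apart. In bulk RNA, fewer cells of a type and less RNA per cell cannot be told apart.

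Colon identity factors were the list most shifted towards DLD-1, with 11 of 16 tested members higher in DLD-1, none higher in HCT116 and a median log2 fold change of 3.02, against 0.00 over all genes. Of all tested genes, 17.5% were higher in DLD-1 and 28.5% in HCT116. Over the 4 pairings of single libraries the list median ran from 2.40 to 2.94. HNF4A, a nuclear receptor that drives enterocyte genes, was at 111 and 94.6 CPM in DLD-1 and at 1.72 and 0.0538 CPM in HCT116 (6.89 ± 1.30, adjusted p = 0.021). Without DLD-1 control 1 its adjusted p was 0.091 (6.67), and the HCT116 replicates differed from each other as their background did. CDX2, the homeobox regulator of the intestine, was at 63.2 and 57.0 against 4.90 and 5.30 CPM (3.56 ± 0.12, adjusted p = 0.0021). GATA6 was at 169 and 169 against 13.4 and 12.6 CPM, and the pioneer factor FOXA1 at 65.0 and 70.2 against 1.04 and 0.673 CPM. EHF, an epithelial ETS factor, was at 397 and 355 against 7.39 and 6.35 CPM, and KLF5, which marks crypt cells, at 314 and 348 against 67.3 and 68.5 CPM.

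Among 28 tested genes of colon differentiation, 10 were higher in DLD-1 and none in HCT116, with a median of 2.93. Next to AGR2 stood CDH17 (8.39 ± 0.89, adjusted p = 0.0064), the tetraspanin TSPAN8 at 54.3 and 53.9 against 0.674 and 0.0538 CPM, and the keratin KRT20 at 7.61 and 5.35 CPM against a single read in HCT116, a ratio of 470 with an exact interval of 84.0 to 18578. CEACAM6 and CEACAM5, adhesion molecules of colon epithelium, and the trefoil peptide TFF3 were called at 2.15 to 12.3 CPM in DLD-1 and below 0.4 CPM in HCT116. The remaining 11 of the 39 listed genes had too few reads for the test, among them MUC2, FABP1 and the guanylin gene GUCA2A, all below 0.3 CPM in each library.

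**Figure D2:**
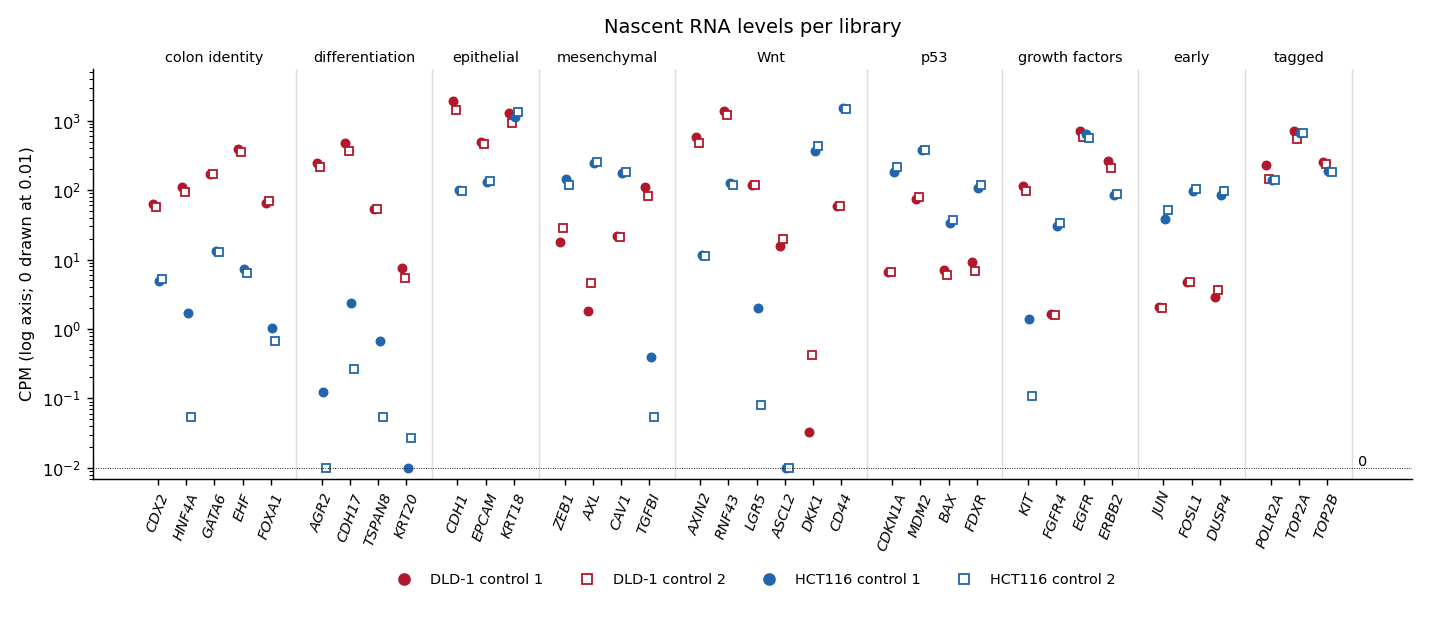
CPM of selected genes in each of the 4 control libraries (y axis, log scale, 0 drawn at 0.01), grouped by role, with DLD-1 in red and HCT116 in blue and replicate 1 as filled circles, replicate 2 as open squares. Colon factors and AXIN2, RNF43 and LGR5 are higher in DLD-1, p53 targets and the early genes are higher in HCT116, and EGFR and TOP2A overlap.

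Of 34 epithelial junction genes, 18 were higher in DLD-1 and 2 in HCT116, against 17.5% and 28.5% of all tested genes, with a median of 0.58. CDH1 differed by a log2 fold change of 4.09 ± 0.25 (adjusted p = 0.003), the tight-junction gene CLDN1 had 317 and 196 reads against 2 and 1, and the epithelial regulator GRHL2 was at 537 and 475 against 59.6 and 53.6 CPM. The desmosomal PKP2 was at 389 and 344 against 45.7 and 46.3 CPM. The keratin KRT19 (-1.07 ± 0.14, adjusted p = 0.01) and the desmosomal cadherin DSC2 were the 2 members higher in HCT116.

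Mesenchymal genes did not move one way. Of 26 tested, 4 were higher in DLD-1 and 11 in HCT116, against 17.5% and 28.5% of all tested genes. Their median was 0.03, and it went from -2.45 with background subtracted to 0.60 in 1 pairing of single libraries. ZEB1, a repressor of CDH1, was at 17.6 and 28.7 CPM in DLD-1 and 143 and 118 CPM in HCT116 (-2.50 ± 0.29, adjusted p = 0.0078). The metastasis-linked calcium-binding protein S100A4 was at 0.481 and 0.13 against 5.52 and 6.51 CPM. The receptor kinase AXL was at 1.82 and 4.62 against 246 and 256 CPM, and CAV1, the coat protein of caveolae, at 21.7 and 21.3 against 175 and 182 CPM. On the other side, TGFBI, a matrix protein induced by TGF-β, was at 111 and 82.0 CPM in DLD-1 against 0.398 and 0.0538, the ligand TGFB2 at 92.5 and 86.3 against 8.92 and 6.78, and the matrix glycoprotein TNC at 28.5 and 26.1 against 1.10 and 0.0807. The TNC call was lost without DLD-1 control 1 (5.38, adjusted p = 0.11) or DLD-1 control 2 (5.71, adjusted p = 0.063). The filament gene VIM, often taken as the mesenchymal marker itself, was at or below 1.01 CPM in all 4 libraries and was not called. Of 24 integrins, 7 were higher in DLD-1 and 6 in HCT116, against 17.5% and 28.5% of all tested genes. The list median was 1.13 in the fit and 0.19 to 1.29 over the pairings of single libraries. ITGB6, an epithelial integrin that activates TGF-β, differed most at 121 and 108 against 2.02 and 0.673 CPM, while the hemidesmosome integrin ITGB4 was at 443 and 314 against 956 and 1046 CPM.

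Wnt targets were compared because the pathway is switched on through APC in one line and through CTNNB1 in the other. Of 25 tested, 11 were higher in DLD-1 and 7 in HCT116, against 17.5% and 28.5% of all tested genes, with a list median of 1.16. The feedback inhibitors AXIN2 and RNF43, which are direct β-catenin targets, were at 581 and 477 against 11.8 and 11.3 CPM and at 1361 and 1201 against 127 and 117 CPM (5.52 ± 0.15 and 3.39 ± 0.16, adjusted p = 0.0021 and 0.0024). LGR5, the stem cell receptor for R-spondin, was at 118 and 118 against 2.02 and 0.0807 CPM, and the DNA-binding partner of β-catenin LEF1 at 40.5 and 46.1 against 1.47 and 0.0538 CPM. Both were called (adjusted p = 0.019 and 0.04), but without DLD-1 control 1 the adjusted p was 0.083 for LGR5 (6.74) and 0.12 for LEF1 (5.84), and without DLD-1 control 2 it was 0.078 for LEF1 (5.86). Further along, EPHB3, EPHB2, SOX9, TNFRSF19 and ZNRF3 were higher in DLD-1 by 0.86 to 2.82 on the log2 scale.

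Other targets were higher in HCT116. Besides DKK1, the adhesion receptor CD44 was at 59.7 and 59.4 CPM in DLD-1 and 1515 and 1459 CPM in HCT116 (-4.64 ± 0.16, adjusted p = 0.0021). The proto-oncogene MYC (53.3 and 47.9 against 119 and 143 CPM) and CCND1, cyclin D1 (269.9 and 228 against 482 and 532 CPM), were both higher in HCT116. CTNNB1 itself, at 506 and 357 against 379.6 and 388 CPM, was not called (adjusted p = 0.50), and APC was at 173 and 164 against 143 and 132 CPM (0.29 ± 0.08, adjusted p = 0.045).

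p53 targets were the list most shifted towards HCT116. Of 40 tested, 31 were higher in HCT116 and 3 in DLD-1, against 28.5% and 17.5% of all tested genes. The list median was -1.39, with a range of -1.36 to -1.29 over the 4 pairings of single libraries. Its replicate differences were 0.06 and 0.01. CDKN1A, the cell-cycle inhibitor p21, was at 6.6 and 6.65 CPM in DLD-1 and 181 and 215 CPM in HCT116 (-4.90 ± 0.13, adjusted p = 0.0021). The ubiquitin ligase gene MDM2 was at 75.3 and 80.2 against 383 and 376 CPM (-2.29 ± 0.07). PHLDA3, an inhibitor of AKT, differed by -5.06 ± 0.21, the antiproliferative BTG2 by -4.31 ± 0.21, TP53INP1 by -4.12 ± 0.10, and the mitochondrial reductase FDXR by -3.82 ± 0.19. The apoptotic BAX (6.96 and 6.03 against 33.8 and 36.9 CPM) and the repair factor DDB2 (31.4 and 27.3 against 176 and 172 CPM) were called too. FUCA1, TRIM22 and TIGAR were higher in DLD-1, of which TRIM22 is also interferon-inducible.

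Other driver genes were divided, with 9 of 23 higher in DLD-1 and 5 in HCT116, against 17.5% and 28.5% of all tested genes. CDKN2A, which encodes p16 and p14ARF, was at 0.994 and 2.53 CPM in DLD-1 and 34.1 and 32.5 CPM in HCT116 (-4.25 ± 0.55, adjusted p = 0.0094), and its neighbour CDKN2B at 2.92 and 4.75 against 20.7 and 21.6 CPM. The activin receptor ACVR2A was at 173 and 167 against 34.3 and 29.2 CPM (2.42 ± 0.11, adjusted p = 0.0023).

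Of 15 genes of mismatch repair, 9 were higher in HCT116 and 2 in DLD-1, against 28.5% and 17.5% of all tested genes. The list median was -0.27. Among genes whose mean CPM reached 5, the shares were 36.3% and 21.7% and the median was -0.19, so the list median lay near theirs. MSH6, a mismatch recognition factor whose protein DLD-1 is known to lack, was at 63.0 and 60.4 CPM in DLD-1 and 114 and 114 CPM in HCT116 (-0.89 ± 0.06, adjusted p = 0.0031), in a model that overlaps FBXO11. The HCT116 TOP2B-/- libraries held MSH6 at 57.6 and 59.1 CPM, and with them in place of the HCT116 controls the difference became 0.06. Of the genes higher in HCT116, the clamp loader RFC3 (-1.57 ± 0.11) and the clamp PCNA (-1.45 ± 0.11) were furthest.

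**Figure D3:**
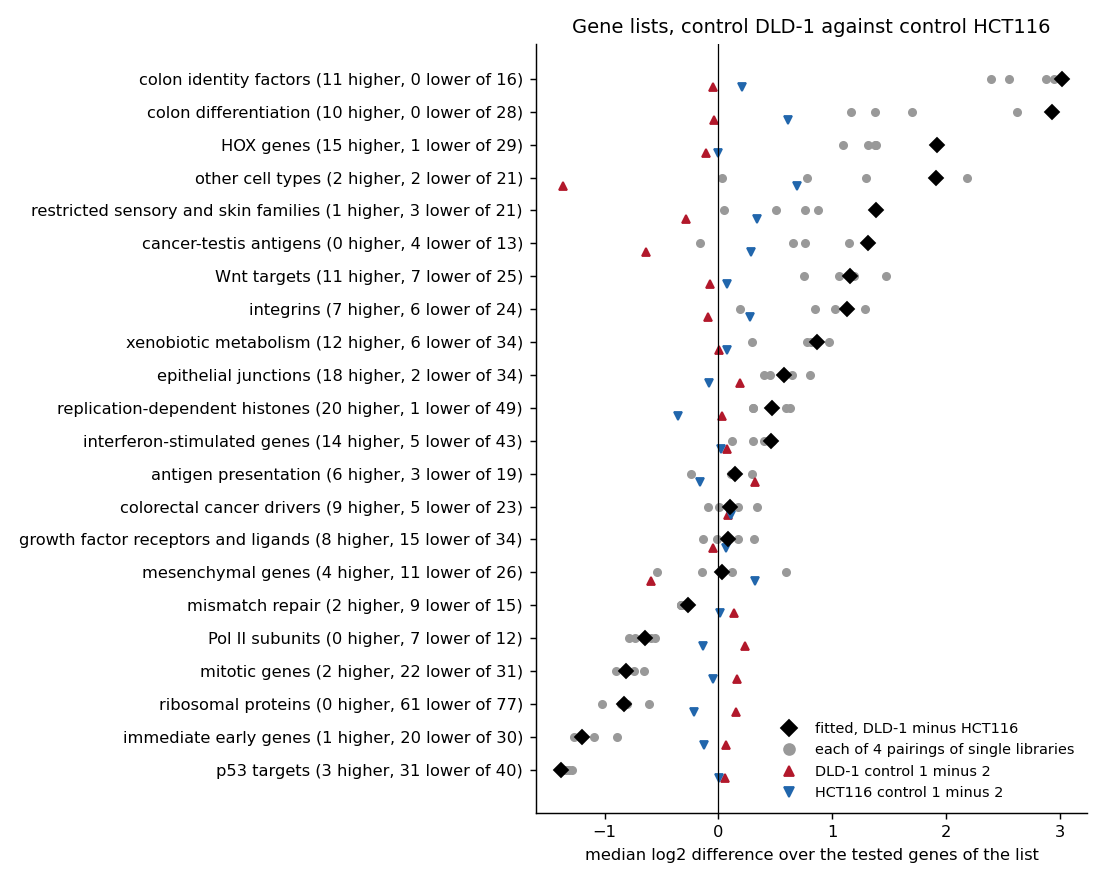
Median log2 difference between control DLD-1 and control HCT116 over the tested genes of each list (x axis), with the fitted value as a black diamond, the 4 pairings of single libraries in grey and the differences between replicates as triangles; labels give members called each way. Colon identity factors lie at 3.02 and p53 targets at -1.39, and markers of other cell types, which have few reads, differ by -1.37 between DLD-1 replicates.

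Growth factor receptors and ligands had 8 of 34 members higher in DLD-1 and 15 higher in HCT116, against 17.5% and 28.5% of all tested genes. EGFR was at 719 and 572 against 638 and 569 CPM and did not differ beyond the spread (adjusted p = 0.66). The receptor kinase KIT was at 113 and 97.0 CPM in DLD-1 against 1.38 and 0.108, ERBB3 at 218 and 161 against 60.8 and 61.1, and the EGFR ligand BTC at 30.9 and 32.3 against 4.63 and 4.22. The fibroblast growth factor receptors FGFR4 (1.66 and 1.59 against 30.8 and 33.7 CPM) and FGFR3 (2.88 and 2.87 against 36.7 and 41.4), with the ligand FGF19 (0.116 and 0.209 against 8.67 and 8.83), were higher in HCT116. MET, the receptor for hepatocyte growth factor, was at 329.5 and 288 against 759.9 and 714 CPM.

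Immediate early genes, which respond to mitogens within minutes, were lower in DLD-1 in 20 of 30 tested and higher in 1 (CTGF). The shares over all tested genes were 28.5% and 17.5%, and the list median was -1.20. The AP-1 genes JUN (2.05 and 1.98 against 38.0 and 52.0 CPM) and FOSL1 (4.71 and 4.78 against 95.8 and 104) and the ERK phosphatase DUSP4 (2.85 and 3.68 against 84.7 and 96.7) were furthest. EGR1 at 14.8 and 14.5 against 15.2 and 18.2 CPM, and DUSP6 at 124 and 111 against 92.2 and 109.5 CPM, were not called.

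Interferon-stimulated genes were higher in DLD-1 in 14 of 43 and higher in HCT116 in 5, with a median of 0.46. OAS1, which senses double-stranded RNA, was at 11.1 and 9.16 against 0.828 and 0.431 CPM, the GTPase MX1 at 14.9 and 13.5 against 1.87 and 1.26, and HERC6 at 96.1 and 92.1 against 15.7 and 14.5. ISG15 and ISG20 went the other way, at 6.51 and 5.98 against 16.3 and 23.6 CPM and at 4.16 and 4.93 against 14.3 and 12.9 CPM. For antigen presentation, 6 of 19 genes were higher in DLD-1 and 3 in HCT116. The shares over all tested genes, to be set beside both lists, were 17.5% and 28.5%. The immunoproteasome subunit PSMB8 was at 5.80 and 4.07 against 0.123 and 0.135 CPM and the peptide trimming enzyme ERAP2 at 141 and 119 against 13.1 and 13.9, while B2M, the light chain of class I molecules, was at 5.49 and 5.22 against 38.0 and 43.4 (-2.93 ± 0.14, adjusted p = 0.0024).

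Of 34 genes of xenobiotic metabolism, 12 were higher in DLD-1 and 6 in HCT116, against 17.5% and 28.5% of all tested genes. Besides GSTM3, the aldehyde dehydrogenase ALDH3A1 was at 22.2 and 18.4 CPM in DLD-1 against 0.552 and 0.323, the oxidase CYP1B1 at 38.4 and 38.5 against 0.552 and 0.673 CPM, and the efflux pump ABCB1 at 140.0 and 122 against 8.06 and 5.19, in a model overlapping RUNDC3B. In HCT116 the retinal dehydrogenase ALDH1A3 was at 457 and 476 CPM against 4.84 and 5.48 in DLD-1 (-6.50 ± 0.11, adjusted p = 0.0021), and the aldose reductase AKR1B1 at 13.3 and 12.4 against 1.13 and 1.41.

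Genes of the positional identity of the body axis, the HOX clusters, were higher in DLD-1 in 15 of 29 tested and higher in HCT116 in 1. The shares over all tested genes were 17.5% and 28.5%, and the list median was 1.92. Over the 4 pairings of single libraries that median was lower, at 1.09 to 1.39. HOXB3 was at 495 and 441 against 31.8 and 29.6 CPM, HOXA13, the most distal gene of its cluster and a marker of hindgut, at 51.5 and 56.9 against 1.59 and 1.99, and HOXB6 at 341 and 316 against 137 and 134. HOXC9, at 0.331 and 0.444 against 5.30 and 5.52 CPM, was the gene higher in HCT116. Neighbouring HOX models are short and closely spaced, so reads that run from one into the next cannot be told apart.

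The replication-dependent histone genes on chromosome 6 showed a pattern of single genes. Of 49 histone genes tested in all, 20 were higher in DLD-1 and 1 in HCT116 (HIST1H2AK), against 17.5% and 28.5% of all tested genes, with a median of 0.47. Among the 54 HIST1 models, 28 had 200 or more reads in both HCT116 controls, but 7 had no more than 2 reads in either HCT116 control while having 255 to 5847 reads in each DLD-1 control. These 7 were HIST1H1B, HIST1H1D, HIST1H3F, HIST1H4I, HIST1H2AL, HIST1H3I and HIST1H4L, and the limits were chosen after the values were seen. HIST1H1B, a linker histone, had 5847 and 3584 reads in DLD-1 and none in HCT116, at least 2224-fold higher, and HIST1H1D had 2397 and 1307 reads against none, at least 873-fold higher. The HCT116 TOP2B-/- libraries had at most 3 reads in any of the 7. HIST1H2AL, HIST1H1B, HIST1H3I and HIST1H4L follow each other along the chromosome, while HIST1H2BN before them (22.5 and 18.4 against 20.7 and 28.7 CPM) and HIST1H3J after them (18.5 and 17.6 against 18.2 and 28.7 CPM) did not pass the test. The linker histones HIST1H1C (234 and 224 against 139 and 169.8 CPM) and HIST1H1E (204 and 207 against 131 and 171 CPM) were high in both. Core histone genes share much of their sequence, so their counts depend on how reads matching several copies were handled, which the sources used here do not give. HIST1H4I also overlaps HIST1H2BK.

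**Figure D4:**
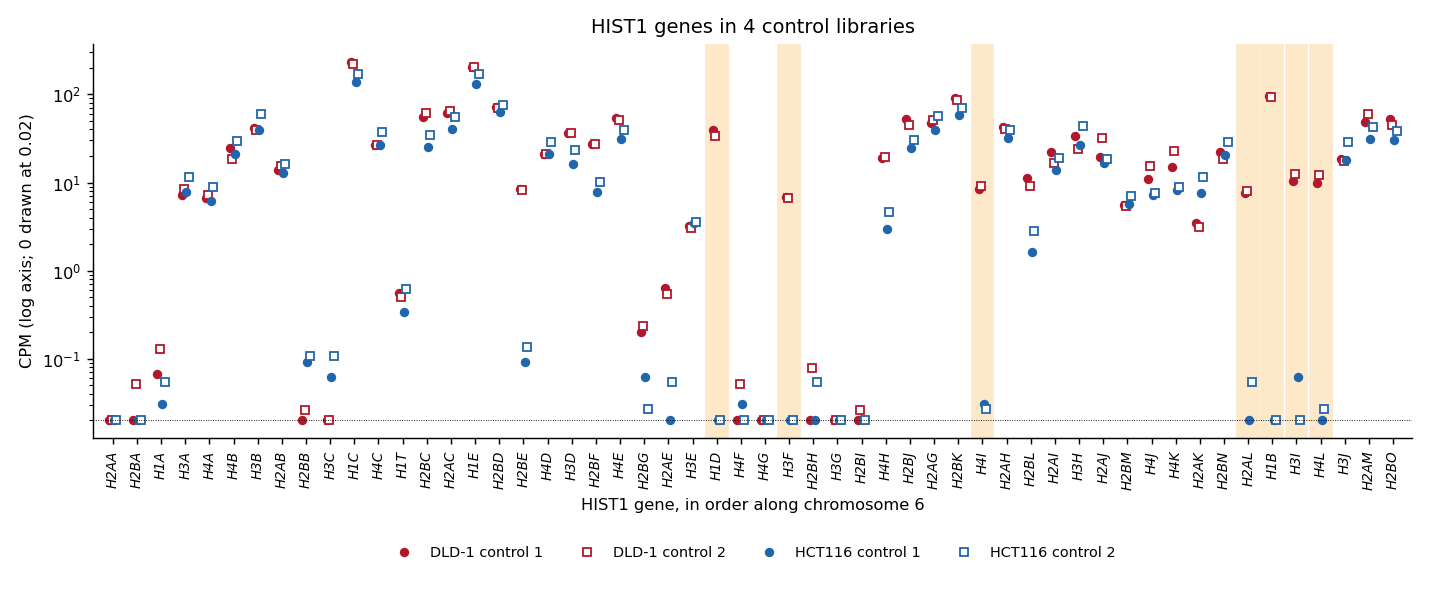
CPM of the 54 HIST1 gene models in order along chromosome 6 (x axis) in the 4 control libraries (y axis, log scale, 0 drawn at 0.02), DLD-1 in red and HCT116 in blue. The 7 shaded genes are at 6.65 CPM or more in both DLD-1 libraries and at or near 0 in both HCT116 libraries, with genes that have reads in both lines among them.

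The promoters of 4 linker histone genes are shown because 2 of them were at 0 in HCT116 and 2 were not. The windows are 250 bases before to 50 after the RefSeq start in GRCh38.p14, 5′ to 3′ on the gene's strand: HIST1H1B (chr6:27867539-27867838, minus), HIST1H1D (chr6:26234938-26235237, minus), HIST1H1C (chr6:26056421-26056720, minus) and HIST1H1E (chr6:26156079-26156378, plus). Capitals mark matches on either strand to the H1 box AAACACA, the CCAAT box CCAAT and the TATA box TATAAA.
HIST1H1B: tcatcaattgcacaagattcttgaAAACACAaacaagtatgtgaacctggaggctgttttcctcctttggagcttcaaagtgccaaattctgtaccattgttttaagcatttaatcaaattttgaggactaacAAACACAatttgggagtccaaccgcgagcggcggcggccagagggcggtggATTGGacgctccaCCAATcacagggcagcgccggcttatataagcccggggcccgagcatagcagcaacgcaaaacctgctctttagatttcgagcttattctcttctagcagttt
HIST1H1D: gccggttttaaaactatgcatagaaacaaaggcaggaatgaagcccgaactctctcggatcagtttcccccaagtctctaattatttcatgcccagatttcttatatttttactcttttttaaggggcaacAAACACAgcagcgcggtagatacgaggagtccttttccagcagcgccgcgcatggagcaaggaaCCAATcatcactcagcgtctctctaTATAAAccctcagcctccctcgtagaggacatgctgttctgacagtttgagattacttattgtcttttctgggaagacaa
HIST1H1C: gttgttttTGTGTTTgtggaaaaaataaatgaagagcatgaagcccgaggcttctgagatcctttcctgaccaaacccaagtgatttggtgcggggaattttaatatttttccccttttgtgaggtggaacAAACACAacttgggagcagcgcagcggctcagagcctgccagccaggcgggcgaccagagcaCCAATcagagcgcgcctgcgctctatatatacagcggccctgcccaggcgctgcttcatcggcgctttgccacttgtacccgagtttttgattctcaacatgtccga
HIST1H1E: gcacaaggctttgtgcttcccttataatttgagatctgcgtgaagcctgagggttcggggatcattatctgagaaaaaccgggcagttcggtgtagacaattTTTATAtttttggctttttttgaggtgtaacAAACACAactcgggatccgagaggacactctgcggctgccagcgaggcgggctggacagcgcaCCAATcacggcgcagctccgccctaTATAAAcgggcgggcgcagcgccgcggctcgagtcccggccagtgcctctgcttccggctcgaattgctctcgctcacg
All 4 windows hold the H1 box and the CCAAT box, which occur in 3.76% and 36.6% of the 13982 windows matched to gene models. The letters TATAAA, present in 9.13% of windows, were found in HIST1H1D and HIST1H1E. Which of these letters were present thus did not separate the 2 genes without reads in HCT116 from the 2 with reads.

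Some genes normally silent outside germ cells or the nose were transcribed in HCT116. Of 13 genes tested under the cancer-testis patterns, 4 were higher in HCT116, against 28.5% of all tested genes, and none in DLD-1. The list's median was 1.31 in the fit and -0.16 to 1.15 over the 4 pairings, and 5 members lay in each direction in all 4 pairings. PRAME had 262 and 300 reads in HCT116 and none in DLD-1, at least 265-fold higher, MAGEB2 and MAGEA3 were given above, and SSX2IP, the fourth, is a centrosomal protein that the name pattern caught and no antigen. Among olfactory receptors, the model of OR51B5, which spans chr11:5342514-5505652, was at 4506 and 3639 CPM in HCT116 and 9.78 and 24.4 CPM in DLD-1 (-7.91 ± 0.74, adjusted p = 0.0051). That span borders the β-globin cluster. Its neighbours OR51B4 (14.6 and 13.8 against 0.0829 and 0.209 CPM), OR51B2 (26.6 and 24.1 against 0.0497 and 0.13) and embryonic globin HBE1 (5.98 and 7.13 against 0.149 and 0.104) were also higher in HCT116, whereas adult HBB was at or below 0.261 CPM in all 4 libraries. The small genes OR51B6, OR51M1 and OR51Q1 inside the OR51B5 span had 0 to 3 reads in the HCT116 controls, and the sources used here do not say how reads in overlapping models were assigned. In the TOP2B-/- libraries OR51B5 was at 4994 and 4853 CPM. OR51B4, OR51B2, HBE1, HBB and the genes inside the span were added after their values were seen.

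Housekeeping groups were lower in DLD-1 by smaller amounts. Ribosomal protein genes were higher in HCT116 in 61 of 77 tested and higher in DLD-1 in none, with a median of -0.83 and a range of -1.02 to -0.61 over pairings, and RPS19, at 49.3 and 41.4 against 153 and 184 CPM, and RPS27L, a p53 target at 8.48 and 7.23 against 34.7 and 36 CPM, were among the furthest. Mitotic genes were higher in HCT116 in 22 of 31 and higher in DLD-1 in 2 (SMC2 and HMMR), with a median of -0.81. The anaphase ubiquitin-conjugating enzyme UBE2C was at 20.7 and 19 against 59.6 and 64.0 CPM and the mitotic kinase AURKB at 24.4 and 20.01 against 62.2 and 69.7, while the condensin subunit SMC2 was at 227 and 189 against 96.5 and 94.5. Of the 12 Pol II subunits 7 were higher in HCT116 and none in DLD-1, led by POLR2J (-1.24 ± 0.28, adjusted p = 0.033). The POLR2J call was lost in most of the fits that left a library out. Beside all these lists, 28.5% of all tested genes were higher in HCT116 and 17.5% in DLD-1. Among genes whose mean CPM reached 5, those shares were 36.3% and 21.7%, and the median was -0.19. Set against genes of like length and GC content, the median was -0.34 for ribosomal proteins, -0.24 for Pol II subunits and -0.79 for mitotic genes. It was -1.25 for p53 targets and 2.62 for colon identity factors. By the same centring the median moved from -1.20 to -0.67 for immediate early genes, from 0.46 to 0.87 for interferon-stimulated genes, from 0.15 to 0.83 for antigen presentation, from -0.27 to -0.58 for mismatch repair and from 0.10 to -0.41 for driver genes. The part of length and GC content in these differences was not tested.

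Gene length itself was related to the difference between lines. Spearman's rho across the 15820 tested genes was 0.31 between length and log2 fold change, so longer genes tended to be higher in DLD-1, and it lay between 0.23 and 0.37 over the 4 pairings. Between the 2 HCT116 replicates rho was 0.60 and between the 2 DLD-1 replicates -0.24, so the relation between lines was smaller than that between replicates of HCT116. These are descriptions across genes, which share libraries and are not independent replicates.

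By chromosome, the difference between lines was largest for chromosome 20. The median log2 fold change over the 316 of its genes whose mean CPM reached 5 was -0.96, with -1.0 to -0.92 over the 4 pairings and 0.08 and -0.01 between replicates, and 69.3% of them were called higher in HCT116 against 36.3% of all such genes. Set against genes of like length and GC content it was -0.87. The other autosomes ran from -0.65 to 0.20, or from -0.41 to 0.22 once centred. The fitted median over all genes whose mean CPM reached 5 was -0.19. Chromosomes 19 (-0.65), 17 (-0.63), 22 (-0.51) and 16 (-0.47) came next, and chromosome 19 moved to -0.14 when centred. With the TOP2B-/- libraries as the HCT116 side, chromosome 20 stood at -0.44, less negative than chromosomes 17 (-0.61), 19 (-0.48) and 22 (-0.45), and chromosome 16 stood at -0.40. DNA copy number was not measured here.

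**Figure D5:**
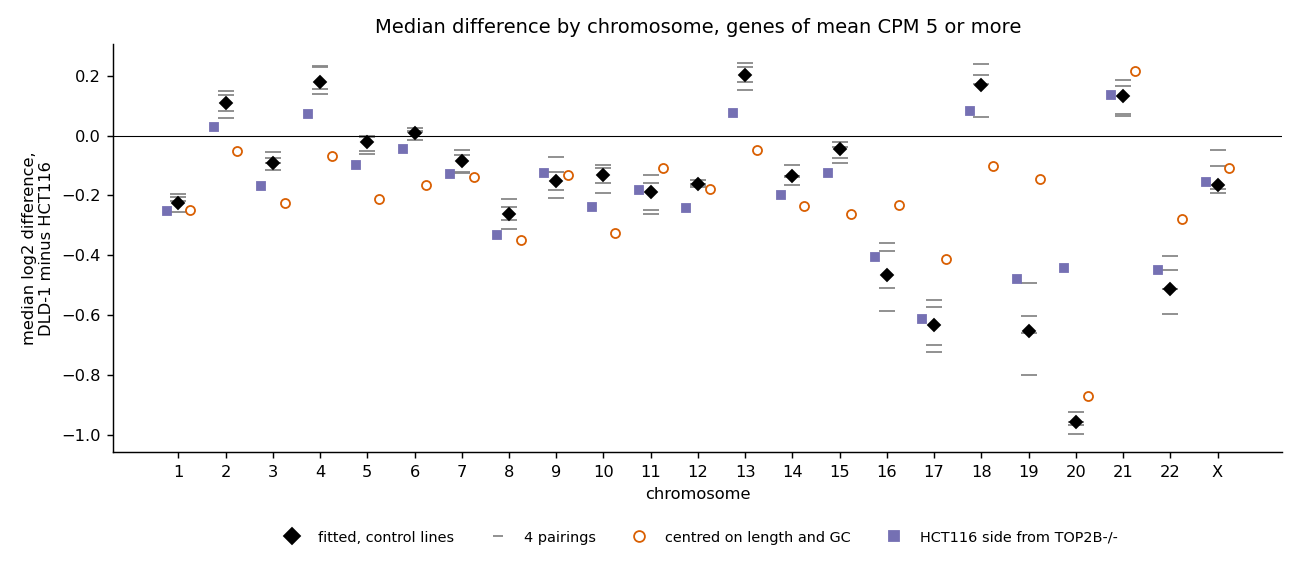
Median log2 difference between DLD-1 and HCT116 over genes whose mean CPM reached 5, by chromosome, as fitted (black diamonds), in the 4 pairings (grey dashes), centred on genes of like length and GC content (open circles) and with the TOP2B-/- libraries as the HCT116 side (squares). Chromosome 20 is lowest at -0.96 and moves to -0.44 with the TOP2B-/- libraries, while chromosome 17 goes from -0.63 to -0.61.

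Within chromosomes, 289 windows of 10 Mb held 10 or more such genes, and 23 of them were below -0.5 in all 4 pairings, 5 of these on chromosome 20, while 10 were above 0.5. On chromosome 20 all 7 windows were negative, from -0.46 at 10 to 20 Mb to -1.36 at 60 to 70 Mb. With the TOP2B-/- libraries as the HCT116 side these 2 stood at 0.10 and -0.62, the window at 20 to 30 Mb went from -0.60 to 0.07, and the other 4 ran from -0.70 to -0.15. Outside it, chromosome 10 (100 to 110 Mb, -1.08 over 61 genes), chromosome 16 (80 to 90 Mb, -1.10 over 71 genes), chromosome 17 (70 to 80 Mb, -0.96 over 89 genes, and 80 to 90 Mb, -1.22 over 58 genes) and chromosome 8 (140 to 150 Mb, -1.23 over 59 genes) stood lowest. These windows were -1.09, -1.01, -0.90, -1.06 and -0.96 with the TOP2B-/- libraries as the HCT116 side, and -0.89, -0.80, -0.66, -0.53 and -0.59 once centred on length and GC content. In the other direction, windows of chromosome 2 (160 to 170 Mb, 1.84 over 27 genes, and 60 to 70 Mb, 0.81 over 43 genes) and chromosome 9 (10 to 20 Mb, 1.71 over 20 genes) were above 0.5 in all 4 pairings, but the first ranged from 0.54 to 1.75 over them. They were 0.85, 0.68 and 1.33 with the TOP2B-/- libraries as the HCT116 side, and 1.11, 0.62 and 1.19 once centred.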

How the data were processed

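The authors aligned reads to hg38 and deposited raw read counts per RefSeq gene span, introns included, as 1 table for each cell line. STAR and DESeq2 are named in the submitters' processing notes, without versions. The sources used here do not give the strand setting, the counting tool or the handling of reads that match several places. Deposited tables of the authors' own comparisons (fold changes and p-values between conditions within a line) were not used. The 2 tables were joined by gene symbol (18638 models, of which 2282 overlap another).

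Counts of the 2 DLD-1 and 2 HCT116 control libraries were fitted with edgeR 4.0.16 (R 4.3.3) after filterByExpr and TMM scaling, with the quasi-likelihood test and Benjamini-Hochberg adjustment over 15820 genes at 0.05. Depth was 33239768 to 62626875 counted reads a library. Exact intervals and the floor of 3 reads cover counting error only. DESeq2 1.42.0 and the other alternatives are given at the end. The fit was tested on simulated counts with known changes. Differences between single libraries used log2(CPM + 0.5). For length and GC content, each gene was set against the median of its bin among 10 by 10 bins. Promoters are RefSeq windows of GRCh38.p14, matched for 13982 models (75.0%).

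The libraries were taken by their labels, and the gene lists were chosen with earlier results of these data known. Genes are named by rule: the 10 largest called differences in each direction (all 4 pairings in that direction, mean CPM of at least 10 in the higher line, no overlapping model, not on chromosome Y), up to 3 called members furthest each way in each list, the 5 highest genes per kb in each line, and a fixed set of drivers and markers. Genes of the sets transcribed in one line, the histone cluster and the globin locus were added after their values were seen, as were KRT8, VIL1, LGALS4, GATA6, KLF5, TSPAN8, MUC2, FABP1, GUCA2A, PKP2, CAV1, EPHB3, EPHB2, SOX9, TNFRSF19, ZNRF3, CCND1, TP53INP1, FDXR, BAX, DDB2, EGR1, DUSP6, ABCB1, HOXB3, HOXB6 and SSX2IP. Some genes that meet the rule are not reported here. Among lists not described above, of 5 tested clustered protocadherins 1 was higher in DLD-1, of 21 genes of sensory and skin families 1 was higher in DLD-1 and 3 in HCT116, and the noncoding RNA CRNDE, the only one of its list in the tables, was higher in DLD-1 (1.03). Over all tested genes 17.5% were higher in DLD-1 and 28.5% in HCT116.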

Additional observations from a re-analysis of the deposited data

How the results depend on the processing

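The called genes named by rule, 123 in all, kept their direction wherever they could be refitted, with 107 present at a mean CPM of at least 5 and 115 among models without overlap, except MSH6, which went to 0.060 with the TOP2B-/- libraries as the HCT116 side. Between 15 and 25 of them lost their call when 1 library was left out, 41 with a test against a log2 fold change of 1, and at most 10 under the other unblocked settings. Replicate numbers did not pair the libraries, as deviations of same-numbered libraries correlated at -0.69. With a replicate block 4105 genes were called (1708 higher and 2397 lower in DLD-1), and 29 of the 123 lost their call. With the numbers crossed, a block chosen after seeing the data, 4484 were higher and 4905 lower, and single genes were not followed.

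The test against a log2 fold change of 1 called 1934 genes (849 higher, 1085 lower). Leaving out 1 library gave 3869 calls (without HCT116 control 2) to 6285 (without DLD-1 control 2), with 1428 to 2792 higher and 2441 to 4253 lower, the last without DLD-1 control 1. Without HCT116 control 1 there were 5663. Subtracting background gave 4369 or 4374 higher calls, depending on whether silent genes or sensory and skin families set it. Of the lists with 10 or more tested genes, 9 had over 50% of members called one way, against 4 to 5 with a library left out, 4 with the replicate block and 1 with the fold threshold.

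Genes transcribed in DLD-1 only numbered 110 at 5 times background, 39 at 20 times and 173 with one limit for all libraries, and in HCT116 only 662 at 5 times, 277 at 20 times and 215 with one limit. Leaving out 1 library gave 68 to 154 and 443 to 1081. The length relation was 0.40 at a mean CPM of 5 or more, and 0.18 to 0.29 without 1 library. The chromosome 20 median was -0.85 with DESeq2 size factors and with its Wald test, -0.83 with upper quartile scaling, -0.79 at a mean CPM of 5 or more, -0.79 or -0.78 with background subtracted, -1.09 to -0.86 without 1 library, and -0.44 with the TOP2B-/- libraries. The cause was not tested.

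Genes near 0 that were not called changed sign. TOP2A was 0.037 with DESeq2 size factors and the Wald test, 0.052 with upper quartile, 0.086 at a mean CPM of 5, and 0.20 or 0.21 with background subtracted. ACTB was 0.079 or 0.092 and KRT18 0.091 or 0.10 with background subtracted. With the TOP2B-/- libraries KRT18 was 0.29 and EGFR -0.13. Without 1 library the ranges were -0.39 to 0.20 for TOP2A, -0.49 to 0.061 for ACTB, -0.55 to 0.13 for KRT18, -0.19 to 0.35 for EGFR, -0.21 to 0.49 for CTNNB1 and -0.061 to 0.80 for POLR2A. Calls lost in 3 or 4 of the fits without a library, their direction unchanged, include APC, TOP2B, TRIM22, TIGAR, DSC2, ISG15, CTGF, HMMR, POLR2J, HIST1H1C, HIST1H2AK, ALB and PDGFRB. At this depth and background, levels under about 1 CPM, and higher levels in long genes, set how far a fold change can be read.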
